A study of Mus musculus with 6 samples.

Results

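Prostanoids are lipid signals made from arachidonic acid. Phospholipases release arachidonic acid from membranes, the cyclooxygenases *Ptgs1* and *Ptgs2* (COX-1 and COX-2) turn it into prostaglandin H2, terminal synthases convert that intermediate into prostacyclin, prostaglandin E2, prostaglandin D2 or thromboxane A2, and each product acts on its own G protein-coupled receptors. In the arterial wall prostacyclin is known to relax smooth muscle and restrain platelets, whereas thromboxane A2 constricts the vessel. *Ptgs1* is known as the constitutive cyclooxygenase of many cells, including platelets and endothelium, and *Ptgs2* as an inducible early-response gene.

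The 10 genes described here were the cyclooxygenases *Ptgs1* and *Ptgs2*, the terminal synthases *Ptgis*, *Ptges* and *Ptgds*, and the receptors *Ptgir*, *Ptger2*, *Ptger3*, *Ptger4* and *Tbxa2r*. They were taken by gene symbol from a table of 55426 genes, and the list was chosen by measured values, since the TPM differences between the groups were known when it was made. Those differences are therefore given as a description: intervals show their error, no p is given for a single member, and a call of a member is no independent evidence. Expression in TPM, a unit corrected for transcript length and scaled to 1 total in every library, was measured by sequencing of polyadenylated RNA from the abdominal aorta of male C57BL/6J mice, in 6 libraries. The 3 Prdm16SMKO libraries came from mice that were *Prdm16* fl/fl and carried *Myh11*-CreERT2, a tamoxifen-inducible recombinase driven by a smooth muscle promoter from the Y chromosome. The 3 control libraries came from mice described as wild-type with *Myh11*-CreERT2, so both groups carried the recombinase and, by this description, only the Prdm16SMKO group carried the floxed alleles. The mice were adult, and tamoxifen was given in the study at 75 mg/kg/day for 5 days from an age of 8 to 10 weeks. The interval between tamoxifen and collection of these aortas was not given in the sources used here. Each library came from a whole vessel segment, in which the design aims to delete the floxed gene in smooth muscle alone. The cells in which it was deleted were not measured in these libraries.

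The targeted gene, *Prdm16*, measured 33.4, 36.8 and 30.8 TPM in control replicates 1 to 3 and 20.8, 27.7 and 14.8 TPM in Prdm16SMKO replicates 1 to 3. All Prdm16SMKO libraries were below all control libraries, with a log2 difference of -0.70 ± 0.22 (SE), an adjusted p of 0.376 by limma (0.0834 to 0.686 over 17 alternative settings) and an exact permutation p of 0.1, the smallest that 3 against 3 libraries allow. Smooth muscle markers were abundant in every library, with *Myh11* between 1488 and 3242 TPM. Mitochondrial transcripts took 15.8% to 27.4% of the TPM and 45S ribosomal precursor genes took 15.6% to 31.4%, and these shares varied within both groups. Mesothelial markers were at most 0.6 TPM in any library.

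*Ptgs2* (ENSMUSG00000032487, chromosome 1, 150100031 to 150108227 on the plus strand of GRCm38) was lower in every Prdm16SMKO library than in any control library. It measured 4.90, 5.81 and 4.83 TPM in the control libraries and 1.28, 2.10 and 1.57 TPM in the Prdm16SMKO libraries. The lowest control value was therefore above the highest Prdm16SMKO value by more than the spread within either group, and the ratio of the group means, 5.18 ± 0.547 against 1.65 ± 0.416 TPM (SD, n = 3 each), was 0.319. On the log2(TPM + 0.5) scale the difference was -1.42 ± 0.22 (SE), with a 95% interval from -1.92 to -0.91. In these whole-tissue libraries, fewer cells of a type and less RNA per cell cannot be told apart.

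*Ptgs1* (ENSMUSG00000047250, chromosome 2, 36230426 to 36252272 on the plus strand) lay the other way. It measured 4.66, 4.18 and 5.01 TPM in the control libraries and 6.62, 12.51 and 7.11 TPM in the Prdm16SMKO libraries. The groups did not overlap, and Prdm16SMKO replicate 2 stood well above the other Prdm16SMKO libraries. The means were 4.62 ± 0.417 and 8.75 ± 3.27 TPM (SD, n = 3 each), with a log2 difference of 0.80 ± 0.25 (SE) and 0.53 without Prdm16SMKO replicate 2. That library also had the highest summed levels of platelet and of endothelial markers. The summed level of 6 platelet and megakaryocyte markers was 118 TPM in it, against 23.2 and 25.8 TPM in the other Prdm16SMKO libraries and 15.5 to 31.7 TPM in the control libraries. The sum of 8 endothelial markers was 440 TPM in it, against 226 and 264 TPM in the other Prdm16SMKO libraries and 198 to 256 TPM in the control libraries. The endothelial markers were not uniform: *Pecam1*, *Vwf*, *Tek* and *Nos3* were highest in that library, but *Cdh5* and *Emcn* were highest in Prdm16SMKO replicate 3. *Kdr* was at its lowest in Prdm16SMKO replicate 2 (5.04 TPM) and at its highest in Prdm16SMKO replicate 3 (13.89 TPM). *Cldn5* was below every control library (40.6 to 48.7 TPM) in all Prdm16SMKO libraries (27.7 to 33.3 TPM). None of these 14 markers was listed at 0 in any library, and *Pf4*, the platelet chemokine, measured between 7.21 and 38.3 TPM. The part of platelet and endothelial RNA in the *Ptgs1* values was not tested.

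The promoters of both cyclooxygenases are shown because their transcripts lay in opposite directions. Each window runs from 250 bases before to 30 bases after the start site listed by RefSeq for GRCm38.p6, on the plus strand, at chr1:150099781-150100060 for *Ptgs2* and at chr2:36230176-36230455 for *Ptgs1*. Capitals mark matches, on either strand, to GGGCGG (GC box), TTGCGCAA (C/EBP), the cAMP response element core TGACG (written CGTCA on the opposite strand) and the E-box CACGTG, of which the last pair overlap by 2 bases.
Ptgs2: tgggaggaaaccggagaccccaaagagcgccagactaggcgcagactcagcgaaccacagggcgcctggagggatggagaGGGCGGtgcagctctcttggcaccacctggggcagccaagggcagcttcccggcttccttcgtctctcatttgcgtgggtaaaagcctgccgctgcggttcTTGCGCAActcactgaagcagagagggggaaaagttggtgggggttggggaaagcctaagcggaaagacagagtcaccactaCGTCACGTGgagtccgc
Ptgs1: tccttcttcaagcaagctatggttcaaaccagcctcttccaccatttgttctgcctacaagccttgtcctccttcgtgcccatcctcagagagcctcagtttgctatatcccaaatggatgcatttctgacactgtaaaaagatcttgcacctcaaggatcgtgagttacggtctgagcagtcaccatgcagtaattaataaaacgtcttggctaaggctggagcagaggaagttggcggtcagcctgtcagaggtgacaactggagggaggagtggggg

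Counting the start site as 1, the *Ptgs2* window held the GC box at -170 to -165, the C/EBP letters at -69 to -62, the cAMP response element core at 14 to 18 and the E-box at 17 to 22. Among 32851 such windows of the RefSeq table, 34.7% held the GC box, 0.18% the C/EBP letters, 19.9% the cAMP response element core and 6.79% the E-box. The *Ptgs1* window held none of them, nor an AP-1 match (TGANTCA, in 7.46% of windows), a TATA box (TATAAA, in 13.1%), an NF-kB consensus (in 7.94%) or a serum response CArG box (in 1.56%). The *Ptgs2* window also lacked the last 4 of these. Bases outside the windows were not searched, so a lack here, and each position, holds only relative to the start site listed by RefSeq. Guanine and cytosine made up 61.4% of the *Ptgs2* window and 49.6% of the *Ptgs1* window, against a median of 52.5% over all windows. Of the 10 genes, 9 had an entry in the table. Among those 9, only *Ptgs2* held the C/EBP letters or the E-box, *Tbxa2r* shared the cAMP response element core, and 6 held a GC box. These matches describe letters in a window, and binding was not measured.

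**Figure D1:**
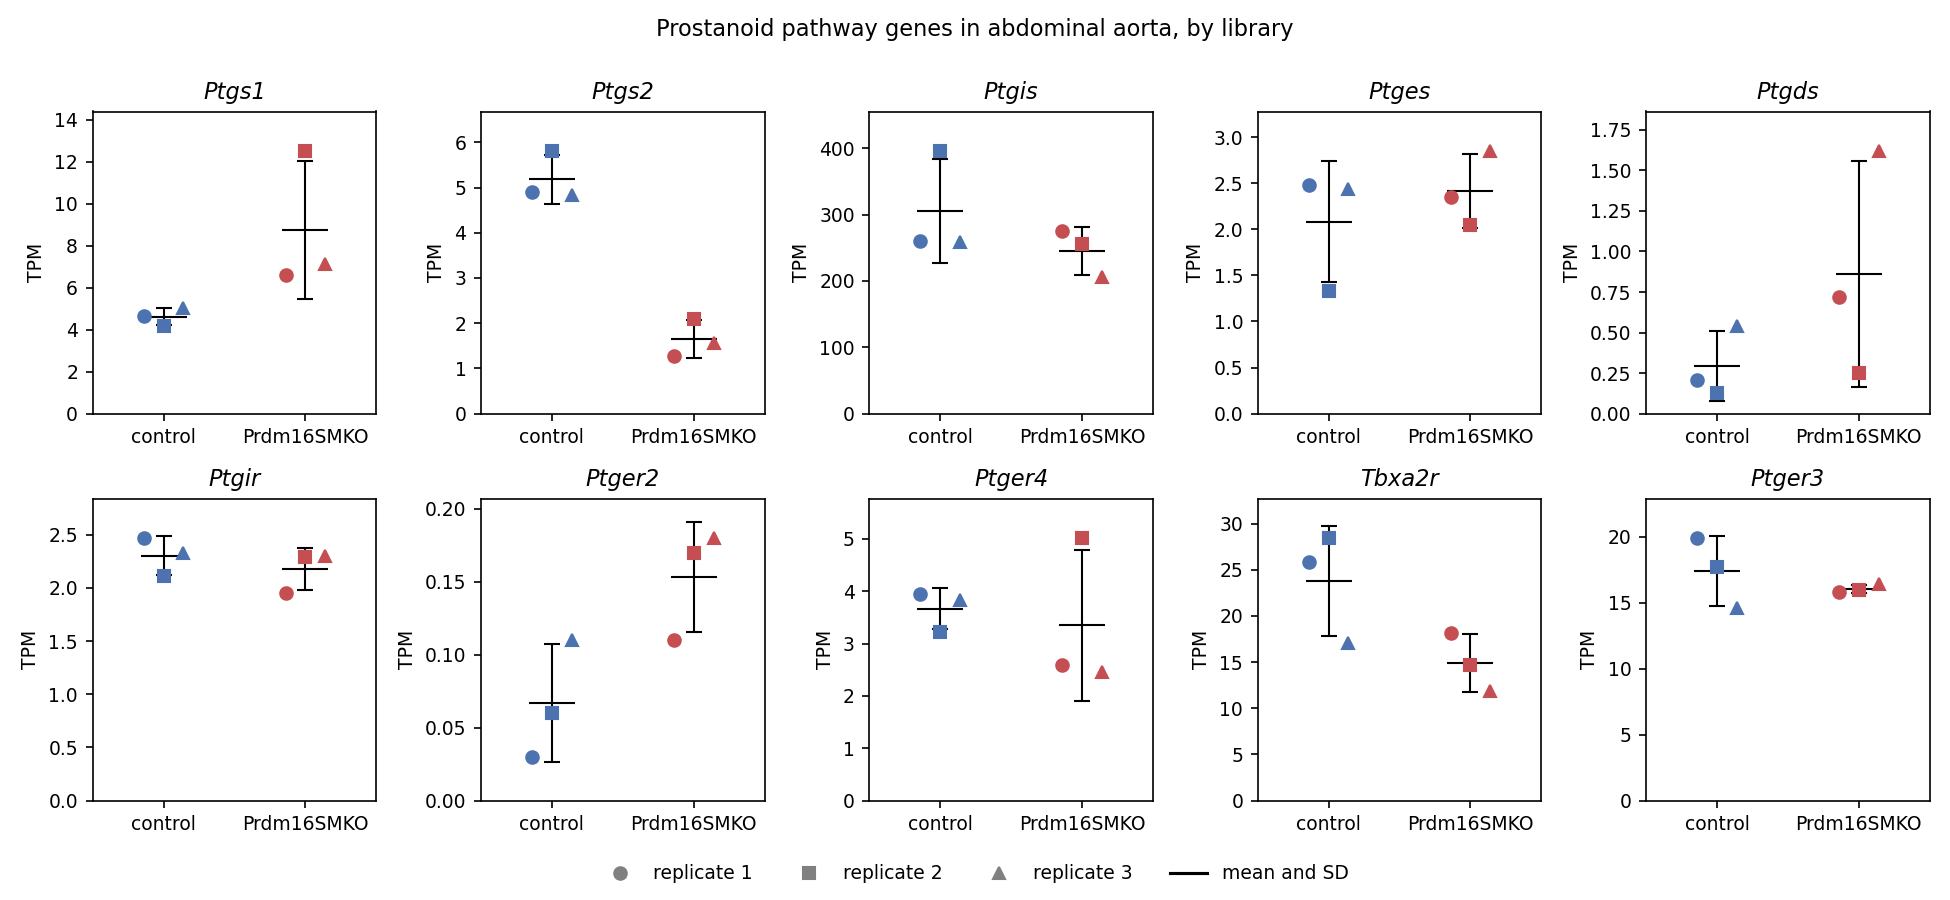
Each panel plots 1 gene of the prostanoid pathway in abdominal aorta, with TPM on the vertical axis from 0, control libraries in blue, Prdm16SMKO libraries in red, a symbol for each replicate, and bars for the mean and SD (n = 3 per group). *Ptgs2* (4.83 to 5.81 against 1.28 to 2.10 TPM) and *Ptgs1* (4.18 to 5.01 against 6.62 to 12.51 TPM) are the panels in which the groups do not overlap.

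Because *Ptgs1* was higher and *Ptgs2* lower in every Prdm16SMKO library, their share and ratio had to separate the groups, and they are given for their size alone. *Ptgs2* made up 51.3%, 58.2% and 49.1% of the cyclooxygenase TPM in the control libraries and 16.2%, 14.4% and 18.1% in the Prdm16SMKO libraries. The ratio of *Ptgs1* to *Ptgs2* was 0.951, 0.719 and 1.04 in the control libraries and 5.17, 5.96 and 4.53 in the Prdm16SMKO libraries, so the cyclooxygenase pair was near parity in control aorta and mostly *Ptgs1* in every Prdm16SMKO aorta. The library with the high *Ptgs1* value was thus not apart from its group in *Ptgs2* share. The sum of both genes overlapped between groups, at 9.56, 9.99 and 9.84 TPM in the control libraries and 7.90, 14.61 and 8.68 TPM in the Prdm16SMKO libraries.

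**Figure D2:**
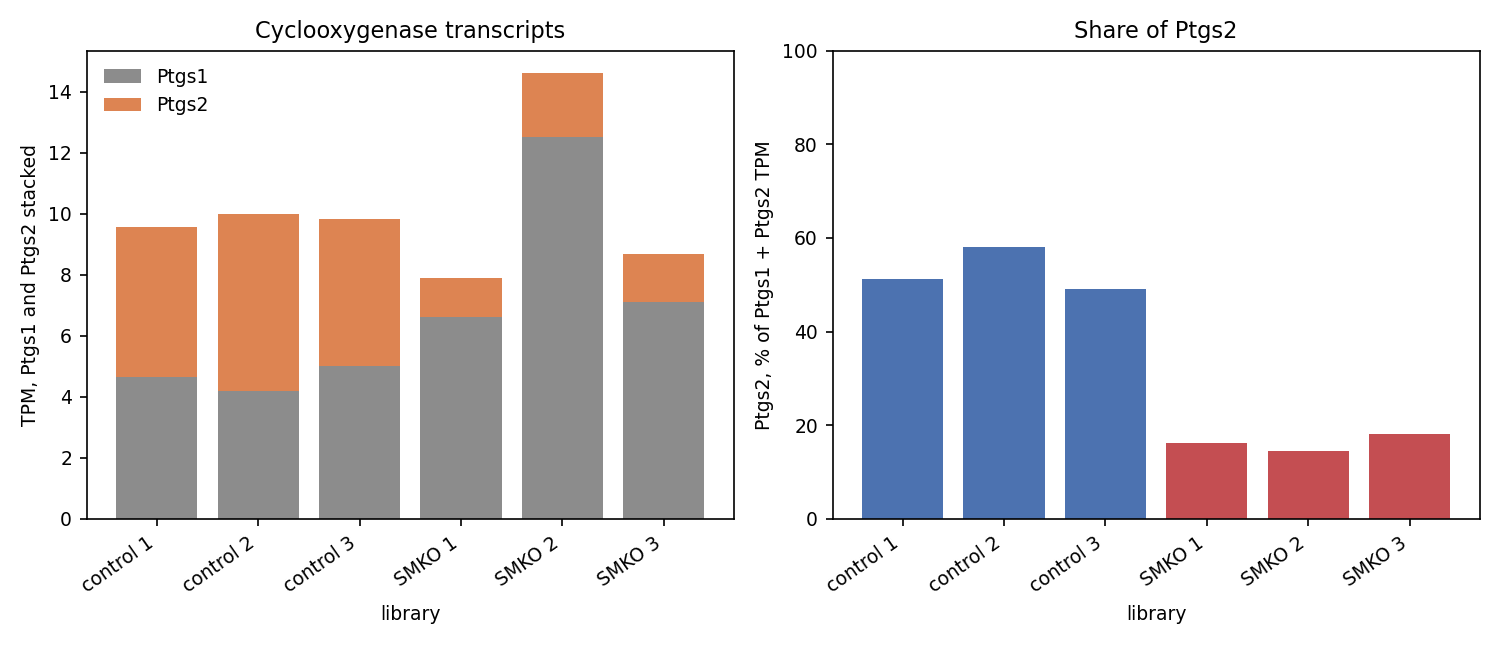
The left panel stacks *Ptgs1* (grey) and *Ptgs2* (orange) in TPM for each library, and the right panel gives *Ptgs2* as a percentage of their sum, with control libraries in blue and Prdm16SMKO (SMKO) libraries in red. The sums overlap between groups, whereas the *Ptgs2* share is 49.1% to 58.2% in control libraries and 14.4% to 18.1% in Prdm16SMKO libraries.

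*Ptgs2* lies close to another gene of the same pathway. *Pla2g4a*, the cytosolic phospholipase that releases arachidonic acid, is 139 kb away on the opposite strand, and it measured 14.26, 19.00 and 13.54 TPM in the control libraries and 14.02, 16.37 and 13.55 TPM in the Prdm16SMKO libraries. Its groups overlapped over almost their whole range, with a log2 difference of -0.08 ± 0.18 (SE) and an adjusted p of 0.972 by limma (0.752 to 0.9999 over the alternatives). *Ptgs2os*, a transcript on the opposite strand that begins 0.068 kb from the *Ptgs2* start and does not overlap *Ptgs2*, was at most 0.22 TPM in any library.

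Among the terminal synthases, *Ptgis* was by far the most abundant. *Ptgis* (ENSMUSG00000017969, chromosome 2, 167191805 to 167240604, minus strand), prostacyclin synthase, measured 260.56, 395.91 and 259.25 TPM in the control libraries and 275.23, 255.23 and 205.79 TPM in the Prdm16SMKO libraries. Control replicate 2 was the highest of the 6 and the remaining libraries overlapped. The log2 difference was -0.30 ± 0.21 (SE), and -0.09 without control replicate 2. In control aorta, 98.4% of the tested genes had a lower mean level, and *Ptgis* made up 80.2% to 86.3% of the summed TPM of the 10 genes in the libraries of both groups. The summed level of 8 smooth muscle markers was also highest in control replicate 2, at 25420 TPM against 14990 to 17660 TPM in 3 of the others and 11550 and 13650 TPM in Prdm16SMKO replicates 3 and 2. The part of smooth muscle content in the *Ptgis* values was not tested.

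*Ptges* (ENSMUSG00000050737, chromosome 2, 30889471 to 30929863, minus strand), the inducible microsomal synthase of prostaglandin E2, measured 2.48, 1.33 and 2.44 TPM in the control libraries and 2.35, 2.05 and 2.85 TPM in the Prdm16SMKO libraries. The groups overlapped, and the log2 difference of 0.20 ± 0.27 (SE) changed sign in 2 of 17 alternatives, the lowest being -0.04. *Ptgds* (ENSMUSG00000015090, chromosome 2, 25466709 to 25470046, minus strand), the lipocalin-type synthase of prostaglandin D2, was close to the lower limit of the comparison. It measured 0.21, 0.13 and 0.54 TPM in the control libraries and 0.72, 0.25 and 1.62 TPM in the Prdm16SMKO libraries, and its mean of 0.578 TPM passed the minimum of 0.5 TPM through the Prdm16SMKO group. The log2 difference was 0.69 ± 0.46 (SE). Prdm16SMKO replicate 3, the highest for *Ptgds*, was also the highest for adipocyte transcripts, with a sum of 531 TPM over 5 markers against 70.5 to 182 TPM in the other libraries. The other libraries did not keep this order. Control replicate 3 had the highest *Ptgds* of the controls and the lowest sum (70.5 TPM), and control replicate 1 had the highest control sum (182 TPM) with *Ptgds* at 0.21 TPM. The part of adipose tissue in the *Ptgds* values was not tested.

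None of the receptors separated the groups without overlap. *Tbxa2r* (ENSMUSG00000034881, chromosome 10, 81328731 to 81335172, plus strand), the thromboxane receptor that contracts smooth muscle, measured 25.82, 28.45 and 17.09 TPM in the control libraries and 18.14, 14.68 and 11.83 TPM in the Prdm16SMKO libraries. Prdm16SMKO replicate 1 lay above control replicate 3, so the groups overlapped, and the log2 difference was -0.65 ± 0.23 (SE), from -0.86 to -0.50 as single libraries were left out. *Ptger3* (ENSMUSG00000040016, chromosome 3, 157566892 to 157645888, plus strand), the EP3 receptor of prostaglandin E2, which lowers cAMP, measured 19.92, 17.69 and 14.59 TPM in the control libraries and 15.79, 15.95 and 16.40 TPM in the Prdm16SMKO libraries. The Prdm16SMKO values lay inside the control range, and the log2 difference was -0.10 ± 0.16 (SE).

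The receptors that raise cAMP were lower in abundance. *Ptgir* (ENSMUSG00000043017, chromosome 7, 16906490 to 16910905, plus strand), the prostacyclin receptor, measured 2.47, 2.11 and 2.33 TPM in the control libraries and 1.95, 2.29 and 2.3 TPM in the Prdm16SMKO libraries, with a log2 difference of -0.07 ± 0.21 (SE) and a 95% interval from -0.55 to 0.42. *Ptger4* (ENSMUSG00000039942, chromosome 15, 5206661 to 5244187, minus strand), the EP4 receptor, measured 3.94, 3.23 and 3.84 TPM in the control libraries and 2.59, 5.02 and 2.45 TPM in the Prdm16SMKO libraries. Its Prdm16SMKO values lay on both sides of the control values, and the log2 difference of -0.17 ± 0.27 (SE) ran from -0.46 without Prdm16SMKO replicate 2 to -0.01 without Prdm16SMKO replicate 3. *Ptger2* (ENSMUSG00000037759, chromosome 14, 44988195 to 45003820, plus strand), the EP2 receptor, was between 0.03 and 0.11 TPM in the control libraries and between 0.11 and 0.18 TPM in the Prdm16SMKO libraries, which was below the minimum, and it was not compared.

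Only receptors among the 10 genes were summed, so *Ptger1* and *Ptgfr* were left out. The summed TPM of the contractile receptors of the set (*Tbxa2r* and *Ptger3*) exceeded that of its relaxant receptors (*Ptgir*, *Ptger2* and *Ptger4*) in every library. The ratio was 7.10, 8.54 and 5.05 in the control libraries and 7.30, 4.10 and 5.73 in the Prdm16SMKO libraries, and the groups overlapped. The ratio of *Tbxa2r* to *Ptgir* was 10.4, 13.5 and 7.34 in the control libraries and 9.30, 6.41 and 5.14 in the Prdm16SMKO libraries, again with overlap. *Ptgs1*, *Ptgis*, *Ptger2* and *Ptger4* each share exon sequence with a gene on the opposite strand, and whether strand was used in counting was not given in the sources used here. Only the partners of *Ptgis* (*1110018N20Rik*, 2.91 to 5.50 TPM) and *Ptger4* (*Ttc33*, 14.2 to 20.0 TPM) were above 0.5 TPM in any library.

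Over the mean of the 6 libraries, the levels of the 10 genes in TPM fell in the order *Ptgis* (275), *Tbxa2r* (19.3), *Ptger3* (16.7), *Ptgs1* (6.68), *Ptger4* (3.51), *Ptgs2* (3.42), *Ptges* (2.25), *Ptgir* (2.24), *Ptgds* (0.578) and *Ptger2* (0.11). Of the 9 pairs of neighbours in this order, 5 held their order in 6 of 6 libraries: *Ptgis* over *Tbxa2r*, *Ptger3* over *Ptgs1*, *Ptgs1* over *Ptger4*, *Ptgir* over *Ptgds*, and *Ptgds* over *Ptger2*. For each of these the two-sided exact sign-flip permutation p was 0.03125, the smallest that 6 libraries allow, and 0.0562 after Benjamini-Hochberg adjustment over the 9 pairs. With only 5 of the 9 pairs at that smallest p, their adjusted p could not fall below 0.05. *Tbxa2r* and *Ptger3* (adjusted p = 0.522), *Ptger4* and *Ptgs2* (0.633), *Ptgs2* and *Ptges* (0.516) and *Ptges* and *Ptgir* (0.938, all by the exact permutation test, n = 6) did not differ beyond their spread over the 6 libraries. The pairs with *Ptgs2* and the pair of *Tbxa2r* and *Ptger3* pool groups that lay differently. *Ptgs2* was above *Ptger4* in 3 of 3 control libraries and below it in 3 of 3 Prdm16SMKO libraries. It was above *Ptges* in 3 of 3 control libraries and in 1 of 3 Prdm16SMKO libraries. *Tbxa2r* was likewise above *Ptger3* in 3 of 3 control libraries and in 1 of 3 Prdm16SMKO libraries. *Ptgs2* was the member whose place moved most: directly above *Ptgs1* in the control means, and below *Ptges* and *Ptgir* in the Prdm16SMKO means.

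Of the 10 genes, 9 passed the minimum mean of 0.5 TPM. By limma with Benjamini-Hochberg adjustment over all 15775 genes tested, 1 of the 9, *Ptgs2*, was called at an adjusted p under 0.05, where 0.355% of all tested genes (56) were called, 29 higher and 27 lower. *Ptgs2* remained called in 6 of 17 alternative settings and in none of the 6 that leave out 1 library, with a log2 difference between -1.61 and -1.23 throughout. *Tbxa2r* was called in addition when libraries were weighted, a setting that gave control replicate 1 a weight of 10.1 against at most 0.954 for any other. The groups did not overlap for 2 of the 9 genes, where 12.8% of all tested genes did not overlap. In all, 3 of the 9 were above control and 6 below, with a median log2 difference of -0.10 against 0.02 over all tested genes. Because the genes were listed with this contrast known, nothing is read from these counts.

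The other genes of the pathway were compared in the same fit. Of 44 listed genes of arachidonic acid release, prostanoid synthesis, reception, transport and breakdown and of the leukotriene branch, 28 passed the minimum, 18 of them above control and 10 below, with a median log2 difference of 0.12. None was called by limma, and 1 had an unadjusted p under 0.05, where 1378 of all 15775 tested genes did. The groups did not overlap for 4 of the 28, all higher in the Prdm16SMKO libraries, a share near the 12.8% of all tested genes. The one gene under 0.05 was *Slco2a1*, the transporter that takes prostaglandins up into cells for breakdown. It measured 3.34, 4.87 and 4.65 TPM in the control libraries and 5.27, 10.52 and 5.78 TPM in the Prdm16SMKO libraries, and every Prdm16SMKO library was above every control library. Its log2 difference was 0.64 ± 0.28 (SE), 0.35 at the lowest as single libraries were left out, with an adjusted p of 0.565 by limma (0.0667 to 0.965 over the alternatives). Its highest value was in Prdm16SMKO replicate 2, the library with the highest summed levels of platelet and of endothelial markers.

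Step by step along the pathway, arachidonic acid release had 8 of 17 genes tested, 3 above control and 5 below. *Mgll*, the lipase that yields arachidonic acid from monoacylglycerols, was the most abundant, at 57.7 to 85.1 TPM in control and 53.5 to 77.3 TPM in Prdm16SMKO libraries, and *Pla2g5*, a secreted phospholipase, had the largest log2 difference (0.67 ± 0.40, SE, adjusted p = 0.753 by limma). The other prostanoid synthases were all tested, 5 of 7 above control and 2 below. *Ptges3*, the cytosolic prostaglandin E synthase that is also the p23 co-chaperone, led in level at 51.8 to 74.1 TPM over the 6 libraries, and *Tbxas1*, thromboxane synthase, had the largest log2 difference (0.39 ± 0.34, SE, adjusted p = 0.876 by limma) at a mean of 0.74 TPM. *Prxl2b*, a prostamide and prostaglandin F synthase, was 6.32 to 7.66 TPM in control and 7.76 to 9.69 TPM in Prdm16SMKO libraries without overlap. Its log2 difference was 0.31 ± 0.18 (SE, adjusted p = 0.733 by limma). It lies 0.259 Mb from *Prdm16* on chromosome 4, and whether its position bears on its level was not tested.

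Of the other prostanoid receptors, 2 of 4 passed the minimum. *Ptger1*, the EP1 receptor, had a log2 difference of -0.09 ± 0.36 (SE, adjusted p = 0.988 by limma), and *Ptgfr*, the prostaglandin F receptor, one of 0.37 ± 0.34 (SE, adjusted p = 0.883 by limma). *Ptgdr*, a prostaglandin D2 receptor, was listed at 0 in all 6 libraries. All 6 genes of transport and breakdown were tested and all 6 were above control, with log2 differences from 0.00 to 0.64. *Zadh2*, a prostaglandin reductase, was the most abundant of them at 17.6 to 25.4 TPM over the 6 libraries, and *Slco2a1* had the largest difference. In the leukotriene and lipoxygenase branch, 5 of 10 genes were tested, 3 above control and 2 below, where *Lta4h*, the hydrolase that makes leukotriene B4, led in level (16.1 to 25.6 TPM) and *Ltc4s*, leukotriene C4 synthase, had the largest difference (0.39 ± 0.42, SE, adjusted p = 0.913 by limma).

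**Figure D3:**
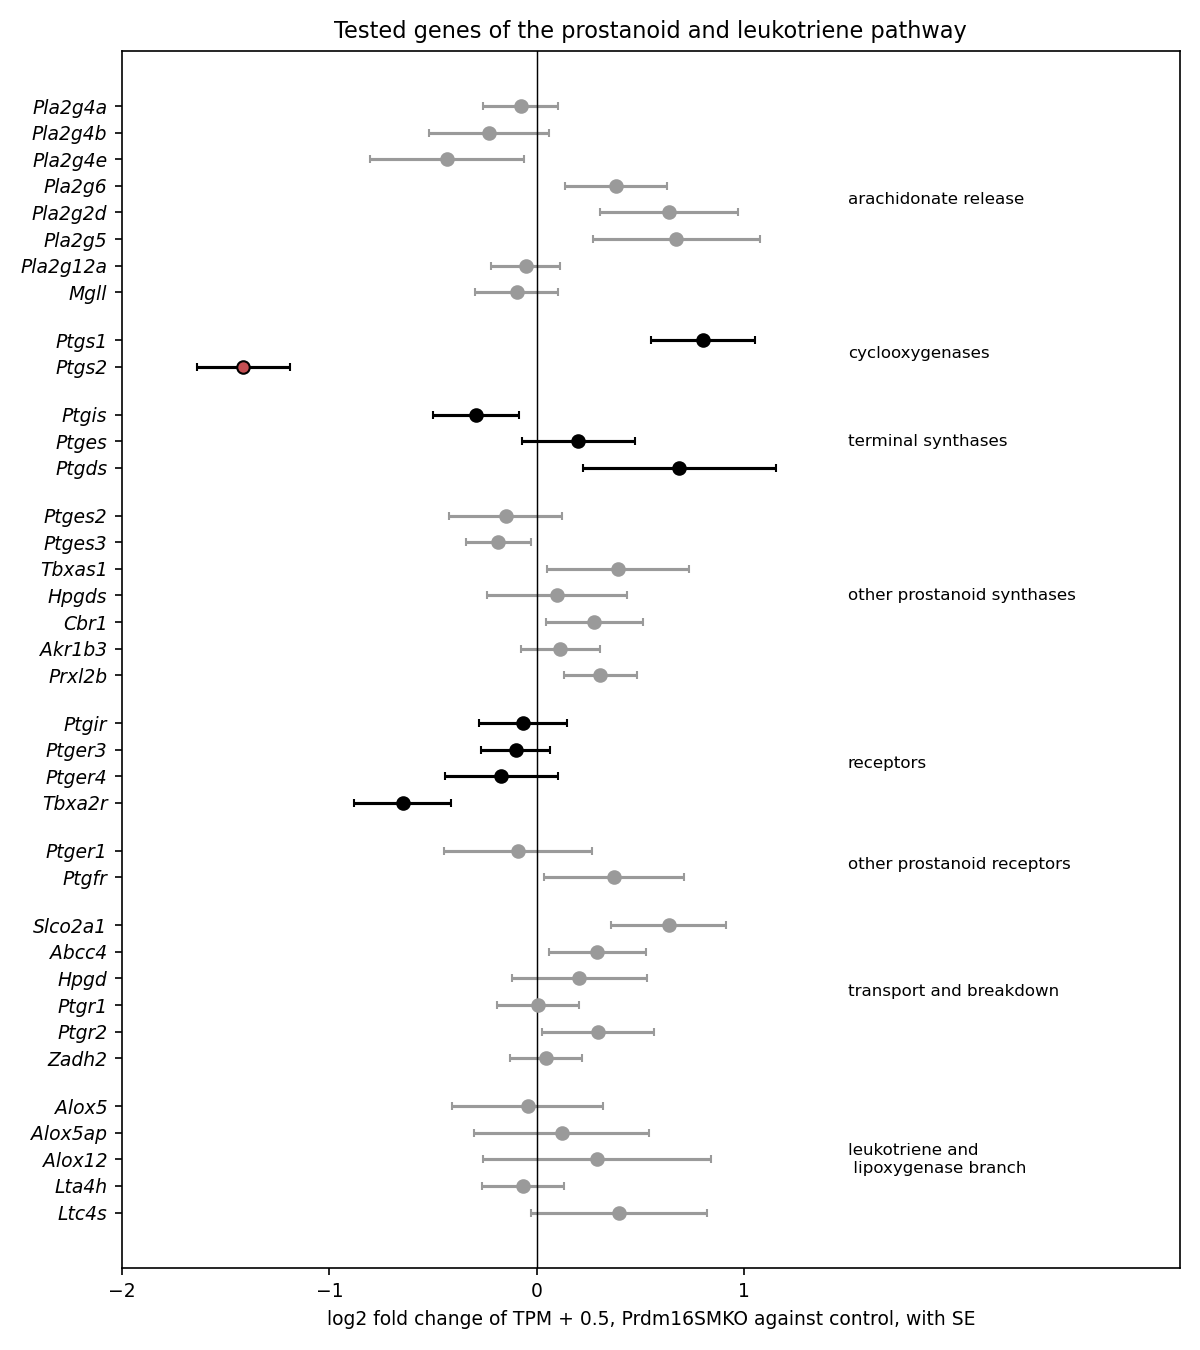
Log2 fold changes of TPM + 0.5 (horizontal axis, Prdm16SMKO against control, with SE) are plotted for every tested gene along the pathway, with the 9 tested genes of the described set in black, the other 28 in grey, and the 1 gene called at an adjusted p under 0.05 filled in red. *Ptgs2*, at -1.42, lies farther from 0 than any other gene plotted.

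*Ptgs2* is known to be induced by the same stimuli as the immediate-early genes, transcription factors and regulators that respond within minutes to growth factors, stretch or injury. Of 22 such genes, 21 were tested, 19 below control and 2 above (*Ier3* and *Myc*), with a median log2 difference of -0.98. By limma with Benjamini-Hochberg adjustment, 6 of them fell and 0 rose, where 0.355% of all tested genes were called, and 13 of the 21 were lower without overlap between the groups, as were 909 of all 15775 tested genes. This list too was chosen with results of these libraries known. *Nr4a1*, an orphan nuclear receptor, measured 131, 130 and 187 TPM in the control libraries and 19.8, 26.2 and 36.2 TPM in the Prdm16SMKO libraries, with a log2 difference of -2.45 ± 0.24 (SE) and an adjusted p of 0.00762 by limma (0.00124 to 0.0741 over the alternatives). *Arc*, a cytoskeleton-associated activity-induced gene, measured 7.33, 8.40 and 9.98 TPM in the control libraries and 1.16, 2.18 and 2.09 TPM in the Prdm16SMKO libraries, with a log2 difference of -1.995 ± 0.24 (SE) and an adjusted p of 0.0164 by limma (0.0037 to 0.114). In both genes the Prdm16SMKO libraries sat far below the lowest control library, as in *Ptgs2*.

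The other 4 that fell were transcription factors. *Atf3* was between 58.9 and 92.7 TPM in control and between 19.7 and 28.9 TPM in Prdm16SMKO libraries (log2 difference -1.66, adjusted p = 0.02385 by limma, 0.00222 to 0.12 over the alternatives). *Nr4a2* was between 6.96 and 9.53 and between 2.39 and 3.34 TPM (-1.40, adjusted p = 0.03855 by limma, 0.00503 to 0.182). *Egr3* was between 9.60 and 12.89 and between 3.85 and 5.24 TPM (-1.29, adjusted p = 0.03916 by limma, 0.003915 to 0.188). *Fosb* was between 22.8 and 28.6 and between 7.30 and 12.3 TPM (-1.36, adjusted p = 0.04135 by limma, 0.00423 to 0.179). Without control replicate 2 none of the 6 was called, and without control replicate 1 only 1 was. With replicate 1 of the controls left out, that gene was *Nr4a1*.

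**Figure D4:**
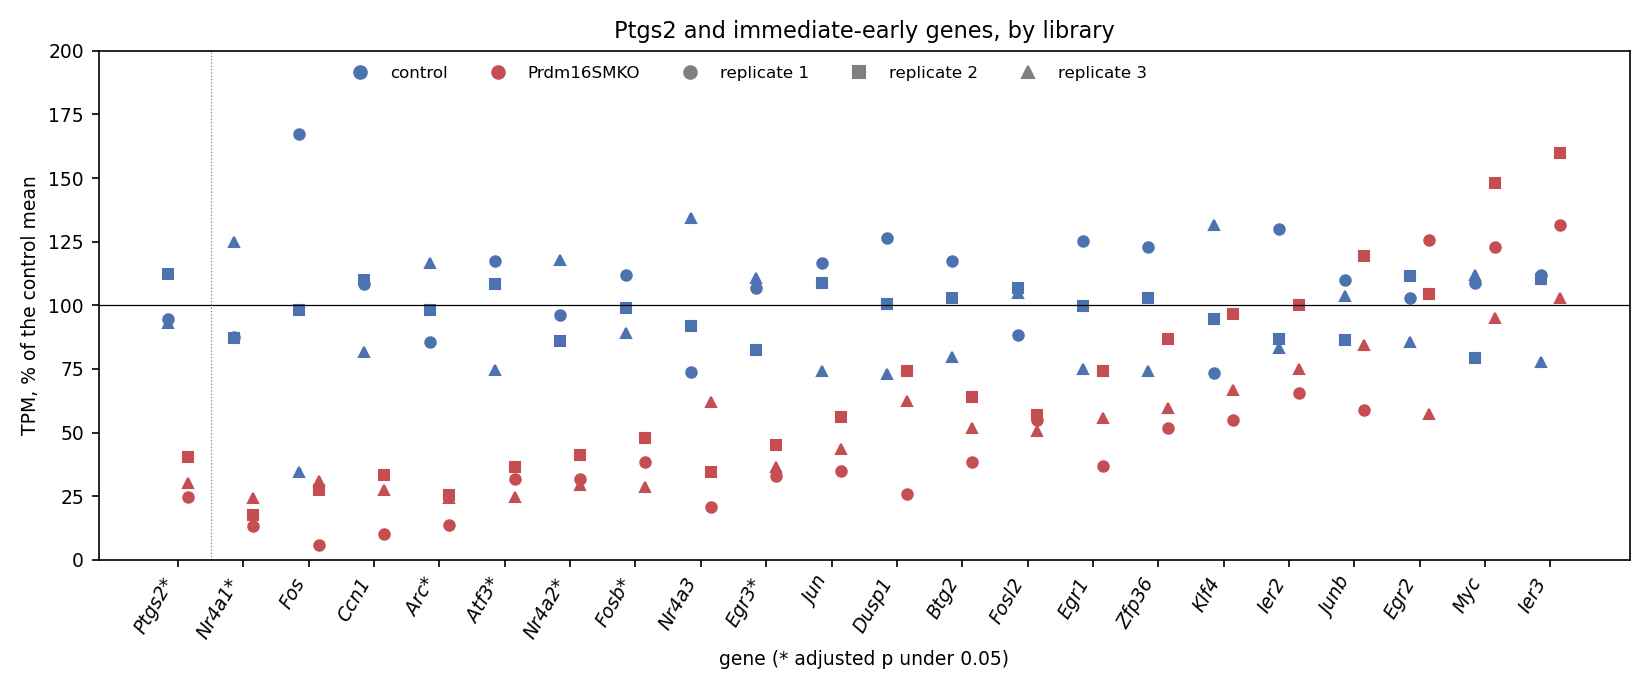
Each library's TPM is plotted as a percentage of the gene's control mean (vertical axis, from 0) for *Ptgs2* and the 21 tested immediate-early genes, ordered by log2 difference, with control libraries in blue, Prdm16SMKO libraries in red, a symbol for each replicate and an asterisk for an adjusted p under 0.05. *Ptgs2* and the 6 immediate-early genes with an asterisk show all Prdm16SMKO libraries below all control libraries, and *Ier3* and *Myc* at the right end do not.

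The inducible inflammatory genes, which share many stimuli with *Ptgs2*, lay on both sides of control. Of 12 listed, 5 passed the minimum, 3 above control and 2 below, none was called by limma and none had an unadjusted p under 0.05. *Il1b*, a cytokine that induces *Ptgs2*, was at most 0.84 TPM in any library, and *Il1a* was listed at 0 in all of them. *Ccl2*, also below the minimum and not tested, was at most 0.24 TPM in the control libraries and between 0.34 and 0.76 TPM in the Prdm16SMKO libraries. It was the only gene of this list in which the groups did not overlap. Markers of leukocytes were higher in several libraries. All 8 macrophage markers were above control, with a median log2 difference of 0.76, a summed level of 41.0 to 64.1 TPM in control and 70.0 to 121 TPM in Prdm16SMKO libraries, 0 called by limma and 5 at an unadjusted p under 0.05. All 4 tested mast cell markers were also above control, with summed levels of 2.44 to 4.46 and 8.11 to 22.3 TPM, 0 called by limma and 4 at an unadjusted p under 0.05. In the smooth muscle list, 7 of 8 markers were below control with a median log2 difference of -0.39, 0 called by limma and 2 at an unadjusted p under 0.05. In the endothelial list, 7 of 8 were above control with a median of 0.36, 0 called by limma and 3 at an unadjusted p under 0.05. Median log2 differences were 0.77 for platelet, 0.10 for fibroblast, 1.02 for adipocyte and 0.97 for Schwann cell markers, with 0 called by limma in each and 0, 1, 2 and 0 genes at an unadjusted p under 0.05. The part of these cell types in the prostanoid gene values was not tested.

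The genes whose pattern was most like that of *Ptgs2* were sought among 9669 genes that averaged 5 TPM or more, by Pearson's r of log2(TPM + 0.5) over the 6 libraries. They were *Comp* (r = 0.990), a cartilage and arterial matrix glycoprotein, *Rilp* (0.986), *Yipf5* (0.985), *Phf10* (0.982) and *Glis2* (0.981). Because *Ptgs2* separated the groups, genes picked this way had to be lower in Prdm16SMKO libraries. Their log2 differences, from -1.22 for *Comp* to -0.21 for *Phf10*, are given for their size alone. After removal of the group means the 5 closest were others, *Atl2*, *Snapc1*, *Mbd1*, *Magoh* and *Mosmo* (r = 0.995 to 0.998). These are the highest values of a search over 9669 genes in only 6 libraries, and whether they exceed what such a search yields was not tested. Those closest to *Ptgis* were *Msn* (r = 0.998), *Stk24*, *Cux1*, *Lmna* and *Pofut2* (0.995 or 0.994 at the lowest). These correlations describe 6 libraries that share their scaling and tissue composition.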

How the data were processed

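RNA from abdominal aorta was sequenced by the authors as paired 151 bp reads after poly A selection with the NEBNext Ultra kit, with 40 M read pairs per library on average per the labels. The authors deposited TPM values for 55426 genes, of which 28867 were 0 in all 6 libraries. The submitters' processing notes list bcl2fastq, cutadapt 2.3, FastQC 0.11.8, STAR 2.7.8a, RSEM 1.3.3, MultiQC 1.7 and GRCm38 without roles. TPM hold no depth, so the depth of single libraries is unknown and no counting error could be given. Groups came from the labels. The study describes 3 mice per group, but the labels do not name the animal behind each library, so p-values measure the spread between libraries. No pair of libraries was identical.

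TPM were taken as log2(TPM + 0.5) for genes averaging 0.5 TPM or more, a scale that understates the change of low genes. Groups were compared with limma 3.58.1 in R 4.3.3 (trended empirical Bayes, two-sided, Benjamini-Hochberg over all genes tested, called under 0.05), which was tested on simulated data. Neighbouring levels were compared by an exact sign-flip permutation test. The 17 alternatives changed the pseudocount (0.1, 1), the minimum (none, 2 TPM), scaling, variance model, weights or block, or left out 1 library. Named were all 10 genes, *Prdm16*, every called gene of the lists, the most abundant and most different gene of each pathway list, and the 5 genes most like *Ptgs2* and *Ptgis*. Other genes named, among them *Pla2g4a*, *Ptgs2os*, *Prxl2b*, *Ptgdr*, *Ier3*, *Myc*, *Il1a*, *Il1b* and *Ccl2*, were added once their values had been seen. The members and lists were chosen with earlier results of these data known. Positions are from GENCODE M21 and promoters from RefSeq.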

Additional observations from a re-analysis of the deposited data

How the results depend on the processing

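The log2 differences of the tested members kept their direction in the alternatives in which they were tested, except that of *Ptges*, which was -0.04 with weighted libraries and -0.03 at the lowest as single libraries were left out. *Ptgds* was tested in 15 of the 17, and not with a minimum of 2 TPM or without Prdm16SMKO replicate 3, where it held its highest value. The calls moved more. Over all genes, limma called 56, against 494 with weighted libraries, 153 with median-of-ratios size factors, 129 with quantile normalization, 123 without mitochondrial and 45S genes, 112 with robust variances, 33 without the variance trend, 10 without a minimum and 5 to 61 as single libraries were left out. The share of higher calls was 51.8% (29 of 56), 39.9% (61 of 153) with size factors and 35.7% (46 of 129) with quantile normalization. Of the 10 prostanoid genes, 1 was called, against 2 with weighted libraries and 0 with a minimum of 2 TPM, without a minimum, without the variance trend, with a pseudocount of 1 and as any single library was left out. Of the immediate-early and inflammatory genes, 6 were called, against 12 with weighted libraries, 2 without the variance trend, 0 without a minimum and 0 to 4 as single libraries were left out, with 0 without control replicate 2. The 28 other pathway genes had 0 calls in each alternative. Leaving out control replicate 2 moved the median log2 difference of all genes to 0.11. With replicate number as a block, 4 genes were called over all, 0 of the prostanoid genes and 1 of the immediate-early genes. Same-numbered libraries deviated from their group means with correlations of -0.13, -0.11 and 0.02, and differently numbered ones with correlations from -0.17 to 0.24. These values showed no pairing by number, but with 3 libraries per group they cannot exclude one. With 3 libraries per group and unknown depth, the 95% intervals of *Ptgis*, *Ptges*, *Ptgds*, *Ptgir*, *Ptger3* and *Ptger4* include 0, and that of *Tbxa2r* runs from -1.18 to -0.11.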
